A study of Mus musculus with 6 samples.

Results

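The nuclear genes for the subunits of oxidative phosphorylation (OXPHOS) were compared between the lungs of LC-HFD and LC-RD mice. Members were all genes whose symbol begins with Nduf followed by a, b, c, s or v and a digit, with Uqcr, with Cox and a digit of 4 to 8 or with Atp5, together with Sdha, Sdhb, Sdhc and Sdhd. Only array probe sets annotated to exactly 1 gene were used, and a gene was read from the probe set with its highest mean over the 6 arrays. This gave 81 genes of 18193 measured, with 33 in complex I, 4 in complex II, 8 in complex III, 19 in complex IV and 17 in complex V. The 81 genes have 164 probe sets of 45037, and 33 genes have a single one. Ndufs6, Ndufa11 and Cox7b were not analyzed here.

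OXPHOS is the final stage of aerobic energy metabolism in the inner mitochondrial membrane. Complexes I and II feed electrons into the chain, complexes III and IV pass them on to oxygen, and the proton gradient built on the way drives ATP synthesis by complex V. A small part of the subunits is encoded by mitochondrial DNA and the rest by nuclear genes, several of which have tissue-restricted or oxygen-responsive isoforms, most of all in complex IV.

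Total lung RNA of 3 LC-HFD mice and 3 LC-RD mice was measured on 1 Affymetrix mouse expression array per mouse. All 6 mice carried CC10-rtTA and tet-O-EGFR-L858R, so that doxycycline switched on mutant human EGFR in lung epithelium, where the CC10 promoter is active, while the arrays read whole lung. LC-HFD mice were fed a diet with 60% of its energy from fat, with doxycycline added for the tumor phase, and LC-RD mice were fed a regular diet with the same addition. Doxycycline was given to both groups at 625 ppm in the diet and, per the labels, at 2 mg/ml in the water. The labels describe feeding until 8 weeks and then 7 weeks of doxycycline, whereas the study's methods describe male mice of 6 weeks, 2 weeks of diet and 8 weeks of doxycycline. The groups labelled HFD+Dox and RD+Dox are called LC-HFD and LC-RD here.

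All array medians lay between 4.79 and 4.84 log2 units, and the 9 measured markers of alveolar type II cells, the surfactant-producing epithelium, averaged 12.48 to 12.51 on LC-HFD arrays and 12.49 to 12.51 on LC-RD arrays. Other marker lists stood apart. Averages were higher in LC-HFD for endothelial (8.43 to 8.52 against 8.23 to 8.29) and macrophage markers (9.51 to 9.56 against 9.40 to 9.42). They were lower for club (10.04 to 10.13 against 10.21 to 10.28), ciliated (6.32 to 6.41 against 6.52 to 6.63) and neutrophil markers (6.13 to 6.24 against 6.36 to 6.45). Within each of these lists single markers went both ways. Differences were positive for 5 of 8 endothelial and 4 of 9 macrophage markers, whose median was -0.00. They were negative for 6 of 8 club, 5 of 8 ciliated and 3 of 6 neutrophil markers. The averages of alveolar type I, T and B cells overlapped between the groups. Control probe sets separated the groups. The 18S rRNA controls averaged 7.61 ± 0.0693 in LC-HFD and 12.53 ± 0.0164 in LC-RD (SD, n = 3 each, exact permutation p = 0.1, the smallest that 3 against 3 allows). The spiked hybridization controls averaged 11.50 ± 0.0254 in LC-HFD and 10.02 ± 0.0168 in LC-RD (exact permutation p = 0.1). Array handling and diet therefore cannot be told apart in any difference given here. RNA integrity was read from 4 control genes as the signal at the 3′ end minus that at the 5′ end. It averaged 1.65 ± 0.061 in LC-HFD and 1.73 ± 0.0293 in LC-RD (exact permutation p = 0.1), and with it as a covariate 2 members were called higher and 1 lower. These are 2.47% and 1.23%, where 3.2% and 5.04% of all genes were called.

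Most OXPHOS genes differed little between the diets. The differences over 0.5 log2 units were those of 5 complex IV genes, Cox4i2, Ndufa4l2, Cox6b2, Cox7a1 and Cox7c, all but the last of them tissue-restricted or induced isoforms. At an adjusted p under 0.05 (limma, adjusted over all probe sets), 6 of the 81 genes were higher in LC-HFD and 14 were lower, while 61 were not called. These are 7.41% higher and 17.3% lower, beside 11.1% higher and 16.2% lower among all genes. In this fit the share called lower was close to that of all genes, and the share called higher was below it. One gene, Cox7c, was called past a 2-fold change, as were 1.68% of all genes. The median difference was -0.08 log2 units over the members and 0.02 over all genes. Among all 9084 genes that averaged 6 log2 units or more over the arrays, the median was -0.07, with 12.1% higher and 23.4% lower. The 74 members among them had a median of -0.08, with 6.76% higher and 16.2% lower, both below those shares. Without LC-RD replicate 1 the members gave 3 higher and 2 lower, without LC-RD replicate 2 they gave 3 and 3, and without LC-RD replicate 3 they gave 5 and 9. Leaving out LC-HFD replicate 2 gave 4 higher and 13 lower. Calls among all genes became fewer as well, to 5.32% higher and 8.54% lower without LC-RD replicate 1. Fewer cells of a type and less RNA per cell cannot be told apart in such whole-lung RNA.

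The spread between mice bounded how large a difference between the groups of arrays could be missed. It does not bound an effect of diet, which cannot be told apart from array handling. Between mice the median SD of a gene was 0.0498 log2 units for LC-HFD and 0.0466 for LC-RD. The 95% confidence interval of a difference reached 0.172 to either side in the median gene. Of the 61 genes that were not called, 60 had an interval that lay wholly within 0.5 log2 units of 0. The exception was Cox8b. Among the 60, Ndufb4 read 2.32 to 2.85 and Cox7b2 1.82 to 2.09 on the arrays, well below the array medians. Whether their intervals bound the genes or only background was not tested. The groups did not overlap in 51 genes, where 49.1% of all genes did not. LC-HFD lay above in 13, or 16%, where 22.3% of all genes did, and below in 38, or 46.9%, where 26.8% of all genes and 40.9% of those with a mean of at least 6 did.

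**Figure D1:**
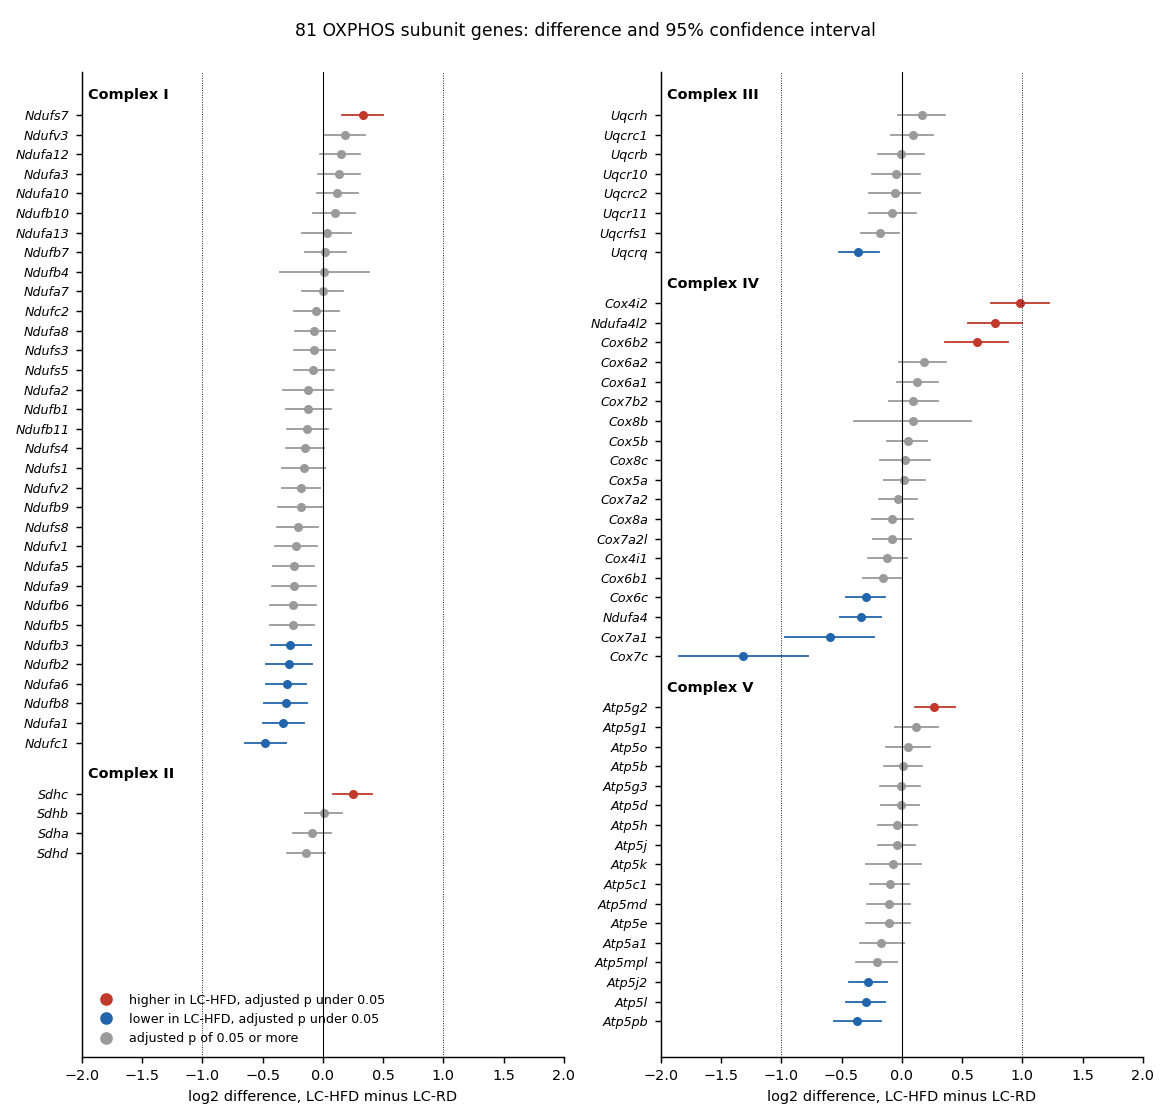
Difference between LC-HFD and LC-RD for the 81 OXPHOS subunit genes by complex, in log2 units on the horizontal axis, with points for the difference and lines for its 95% confidence interval (limma, n = 3 each). Red points are the 6 genes called higher in LC-HFD, blue points the 14 called lower, and dotted lines mark 2-fold. Only complex IV holds points beyond 0.5 on either side.

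Short stretches of promoter were read for the motifs of 4 factors known to act on nuclear OXPHOS genes, because the called genes can be set beside the not called ones. RefSeq windows of 300 bases on GRCm38.p6, with 250 bases before and 50 from each gene's start, were at hand for 66 members, 3 of them called higher and 12 called lower, in 71 windows. Both strands were searched. The YY1 letters AAGATGGC were found in 12.7% of the members' windows and in 2.75% of all 32851 windows. All windows together belong to 27025 genes, more than the 18193 measured here. The YY1 letters lay in 9 members. These were 4 of the 12 lower, 1 of the 3 higher and 4 of the 51 not called members with a window. In most of them the letters lie a little after the gene's start. Of the 8 member windows with AAGATGGC on the gene's strand, 7 held it wholly after the start, as did 284 of 553 among all windows. The stretches of 30 bases below are read 5′ to 3′ on the gene's strand, with the YY1 letters or their reverse complement in capitals, and are shown to set lower, higher and not called genes side by side.
Ndufc1 (lower, chr3:51408915-51408944, minus strand): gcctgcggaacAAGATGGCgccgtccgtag
Ndufb8 (lower, chr19:44555393-44555422, minus strand): tgaaccgcggagaaggtgAAGATGGCtgcc
Atp5j2 (lower, chr5:145191500-145191529, minus strand): accaggacttcAAGATGGCgtcactcggtg
Atp5pb (lower, chr3:105959248-105959277, minus strand): atgtgcgagcgGCCATCTTgctcctgcccc
Ndufs7 (higher, chr10:80249462-80249491, plus strand): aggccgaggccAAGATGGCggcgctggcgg
Ndufa3 (not called, chr7:3617384-3617413, plus strand): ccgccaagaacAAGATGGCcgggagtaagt
Ndufa9 (not called, chr6:126849097-126849126, minus strand): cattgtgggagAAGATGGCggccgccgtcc
Ndufs4 (not called, chr13:114388045-114388074, minus strand): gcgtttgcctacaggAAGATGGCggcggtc
Atp5j (not called, chr16:84835046-84835075, minus strand): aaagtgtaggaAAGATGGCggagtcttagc

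The letters GCGCATGCG of NRF1, the nuclear respiratory factor, were found in 9.86% of the members' windows and in 1.75% of all windows. In a perfect palindrome they overlap their own reverse complement, and such a site was counted once per window. Of the 7 members that hold them, Atp5g2 was called higher, Atp5l was called lower and Ndufa8, Uqcr11, Uqcrc1, Cox6a1 and Atp5k were not called. The stretches of both called members and of Uqcrc1 are shown, with the letters or their reverse complement in capitals.
Atp5g2 (higher, chr15:102671070-102671099, minus strand): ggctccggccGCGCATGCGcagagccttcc
Atp5l (lower, chr9:44920963-44920992, minus strand): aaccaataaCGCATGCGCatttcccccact
Uqcrc1 (not called, chr9:108936668-108936697, plus strand): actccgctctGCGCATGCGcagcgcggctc

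The ETS-type letters CCGGAAGT of GABPA were in 7.04% of the members' windows and 3.89% of all windows, and all 5 members that hold them were not called. The letters CAAGGTCA of the estrogen-related receptors were in 5.63% and 1.56%, and Atp5l was the 1 called gene of 4. A match is a run of letters and not a measured binding site. Among the factors themselves, Nrf1 rose, with 6.59, 6.67 and 6.50 log2 units in LC-HFD against 6.10, 6.02 and 5.96 in LC-RD (difference 0.56, adjusted p = 0.00366). These values are from 1 of its 4 probe sets. With the median over the 4, and with the 3' minus 5' signal as covariate, Nrf1 was not called higher. Gabpa fell, with 7.72, 7.48 and 7.69 in LC-HFD against 8.06, 8.08 and 7.84 in LC-RD (difference -0.36, adjusted p = 0.0424). The groups do not overlap in either gene. Yy1 was not called (difference -0.07, adjusted p = 0.532), and neither was Esrra (0.17, adjusted p = 0.251).

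Complex IV, cytochrome c oxidase, held the largest differences, in both directions. Of its 19 genes 3 were higher and 4 were lower, and its median difference was 0.02. These are 15.8% and 21.1%, beside 11.1% and 16.2% of all genes. Cox4i2 encodes the lung-enriched, oxygen-responsive isoform of subunit 4. It had 6.09, 6.12 and 5.84 log2 units in LC-HFD and 4.98, 4.98 and 5.16 in LC-RD. All LC-HFD lungs were above all LC-RD lungs, by 1.97-fold in the means (0.98 log2 units, 95% interval 0.74 to 1.22, adjusted p = 0.00123). Cox4i1, the ubiquitous isoform of the same subunit, had 11.36, 11.28 and 11.35 in LC-HFD against 11.43, 11.45 and 11.46 in LC-RD, a difference of -0.12 that was not called (adjusted p = 0.233).

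The same contrast between an induced and a ubiquitous paralog was seen for Ndufa4l2 and Ndufa4. Ndufa4l2, a mitochondrial protein known to be induced by hypoxia through HIF-1, had 6.62, 6.46 and 6.42 log2 units in LC-HFD and 5.80, 5.59 and 5.78 in LC-RD. It was 1.71-fold higher without overlap (0.77 log2 units, 95% interval 0.55 to 1.00, adjusted p = 0.00217). Ndufa4, first assigned to complex I and now counted with complex IV, fell, with 10.82, 10.94 and 10.92 in LC-HFD against 11.25, 11.24 and 11.21 in LC-RD (difference -0.34, adjusted p = 0.0148), again without overlap. Cox4i2 and Ndufa4l2 kept their calls under every alternative setting that tested them (a minimum mean of 6 leaves Cox4i2 out), while the call of Ndufa4 was lost without LC-RD replicate 1 or LC-RD replicate 2.

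In lung both induced genes are known from pericytes and related mural cells. A list of 12 pericyte genes, chosen after the values of Cox4i2 had been seen, gave 3 higher and 4 lower. These are 25% and 33.3%, beside 11.1% and 16.2% of all genes. The list averaged 6.92 to 7.09 on LC-HFD arrays and 6.88 to 6.92 on LC-RD arrays. Rgs5, a regulator of G-protein signaling, was higher by 2.17 log2 units, while Kcnj8, a potassium channel subunit, was lower (difference -0.82). The defining marker Pdgfrb was not called (difference -0.13, adjusted p = 0.376). The part of cell composition in the rise of Cox4i2 and Ndufa4l2 was not tested.

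Cox6b2, known as the testis isoform of subunit 6b, had 7.26, 7.63 and 7.54 log2 units in LC-HFD and 6.89, 6.92 and 6.76 in LC-RD. It was higher by 0.62 (95% interval 0.36 to 0.88, adjusted p = 0.00821), with every LC-HFD lung above every LC-RD lung. The general isoform Cox6b1 had 11.10, 11.15 and 11.10 in LC-HFD against 11.28, 11.27 and 11.28 in LC-RD, and its difference of -0.16 was not called (adjusted p = 0.121). The other genes known as testis isoforms, Cox8c and Cox7b2, differed by 0.03 and 0.09 and were not called, and Cox7b2 was below 2.1 on all arrays.

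Cox7a1, the heart and skeletal muscle isoform of subunit 7a, fell, with 4.0, 3.90 and 4.21 in LC-HFD against 4.97, 4.41 and 4.53 in LC-RD (difference -0.60, adjusted p = 0.0318). The groups do not overlap, but most values lie below the array medians, and the call was lost without LC-HFD replicate 1 or 2 and without LC-RD replicate 1 or 3. Its liver-type counterpart Cox7a2 differed by -0.03 (adjusted p = 0.78). Cox6a2 and Cox8b, the muscle isoforms of other subunits, differed by 0.18 and 0.09 and were not called. Of 12 cardiomyocyte markers 4 (33.3%) were lower and none was higher, where 16.2% and 11.1% of all genes were. The list averaged 4.25 to 4.40 on LC-HFD arrays and 4.61 to 4.63 on LC-RD arrays, below the array medians. Among the cardiomyocyte markers Myl7, the atrial myosin light chain, had the largest difference (-1.36, adjusted p = 0.000537). The 8 skeletal muscle markers gave 1 higher (12.5%) and none lower. The part of cardiomyocyte RNA in the fall of Cox7a1 was not tested.

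Cox7c, a small ubiquitous subunit, had the largest difference of all members. It had 4.41, 3.58 and 4.44 in LC-HFD and 5.47, 5.59 and 5.32 in LC-RD, a 2.49-fold lower mean (difference -1.32, 95% interval -1.85 to -0.78, adjusted p = 0.00708). LC-HFD replicate 2 was the lowest array, and the groups do not overlap. The second probe set of Cox7c was also lower (-1.01, adjusted p = 0.00664), with means of 2.28 in LC-HFD and 3.29 in LC-RD. Both probe sets read low on these arrays, so the size of the change rests on signals near or below the array median. Cox4i1 and Cox5a, also ubiquitous, averaged 11.3 and 11 in LC-HFD. Whether the probe sets of Cox7c read its main transcript was not tested. With the methods' t-test the call of Cox7c was lost (adjusted p = 0.0562). Cox6c, another small subunit, had 11.18, 11.25 and 11.23 in LC-HFD against 11.54, 11.53 and 11.48 in LC-RD (difference -0.30, adjusted p = 0.0197). Without LC-RD replicate 1 or 2 this call was lost.

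The remaining genes of complex IV moved little. Cox5a and Cox5b, ubiquitous subunits of the matrix side, differed by 0.02 and 0.05, and Cox6a1 and Cox8a, the general isoforms of their subunits, by 0.13 and -0.08. Cox7a2l, which takes part in joining complexes III and IV into supercomplexes, differed by -0.08. None of these was called.

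**Figure D2:**
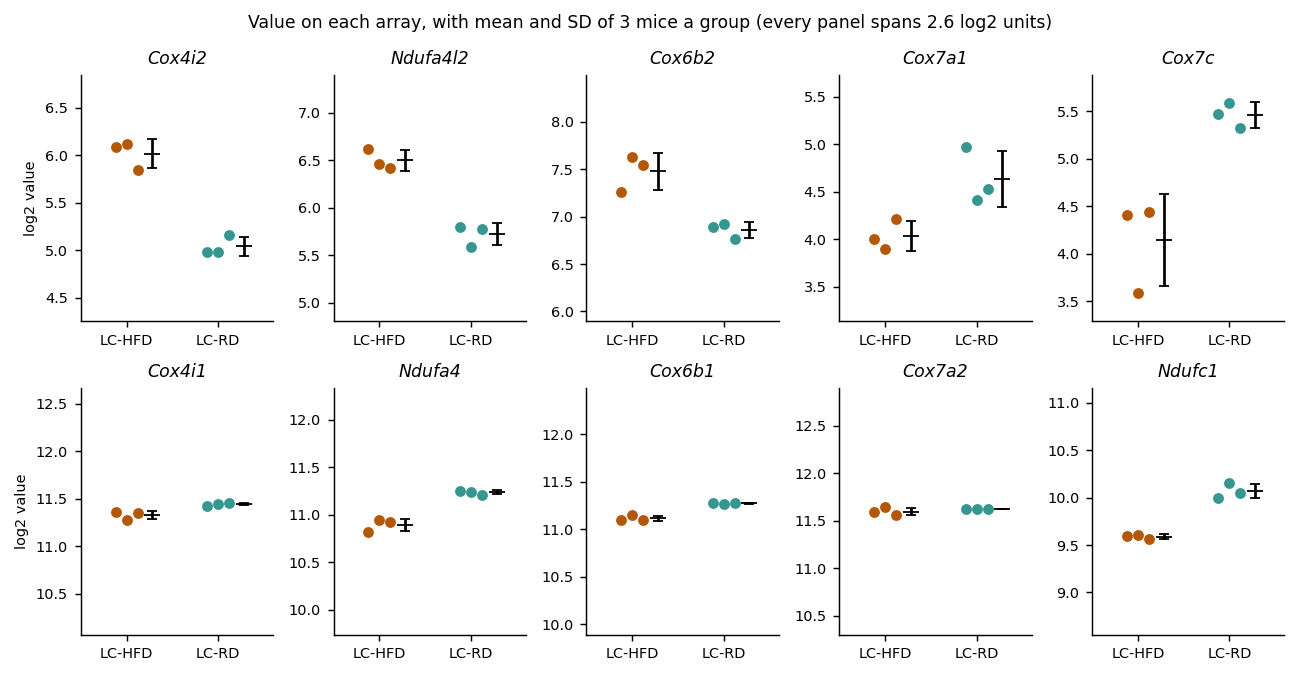
Log2 value of 10 OXPHOS genes on each array, with LC-HFD in brown and LC-RD in green, 1 point per mouse, and bars for the mean and SD (n = 3 each). The upper panels hold the 5 members with a difference over 0.5, where the groups stand apart, and the lower panels hold 4 general paralogs and Ndufc1 on axes of the same span.

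In complex I, NADH:ubiquinone oxidoreductase, small shifts ran mostly downward. Of its 33 genes 1 was higher, 6 were lower and 24 had a negative difference, with a median of -0.13. The share lower was 18.2%, beside 16.2% of all genes and 23.4% of those with a mean of at least 6. Among the latter 5544 of 9084 had a negative difference, with a median of -0.07. The mean over its probe sets was 9.43, 9.46 and 9.42 on the LC-HFD arrays and 9.54, 9.55 and 9.56 on the LC-RD arrays. The 6 lower genes are accessory subunits, and none of them carries a redox cofactor. Ndufc1, a small subunit of the membrane arm, had 9.59, 9.61 and 9.56 in LC-HFD against 10.00, 10.15 and 10.05 in LC-RD (difference -0.48, adjusted p = 0.00455). The groups do not overlap, and the other probe set of Ndufc1 was also lower (-0.57, adjusted p = 0.00277).

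Ndufa1, needed for assembly of the membrane arm, had 10.95, 10.95 and 11.06 in LC-HFD against 11.35, 11.33 and 11.27 in LC-RD (difference -0.33, adjusted p = 0.0176). Ndufb8, a membrane-arm subunit widely used as a marker of assembled complex I, had 9.61, 9.71 and 9.68 in LC-HFD against 10.01, 9.90 and 10.03 in LC-RD (difference -0.31, adjusted p = 0.0241). In both genes all LC-HFD lungs were below all LC-RD lungs. Ndufa6, a subunit of the LYR motif family, was lower by a similar amount (-0.30), as were the membrane-arm subunits Ndufb2 (-0.28) and Ndufb3 (-0.27). Without LC-RD replicate 1, and likewise without LC-RD replicate 2, Ndufc1 was the only one of the 6 whose call was kept. Ndufb8 was not called with the median over its probe sets.

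Among the catalytic subunits of complex I only Ndufs7 was called. It carries the last iron-sulfur cluster before ubiquinone and had 10.03, 10.02 and 9.95 in LC-HFD against 9.62, 9.66 and 9.72 in LC-RD, higher without overlap (difference 0.33, adjusted p = 0.0161). The call was lost without LC-RD replicate 1 or 2, and the other probe set of Ndufs7 was not called (0.08, adjusted p = 0.454). The other core subunits measured all had negative differences that were not called. These were -0.07 for Ndufs3, -0.16 for Ndufs1, which holds several iron-sulfur clusters, -0.18 for Ndufv2, -0.21 for Ndufs8 and -0.22 for Ndufv1, the subunit that binds NADH. The adjusted p was 0.0691 for Ndufs8 and 0.0696 for Ndufv1.

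Complex II, succinate dehydrogenase, also belongs to the citric acid cycle and is wholly nuclear-encoded. Sdhc, 1 of its membrane anchors, had 9.50, 9.50 and 9.40 in LC-HFD against 9.25, 9.19 and 9.23 in LC-RD (difference 0.25, adjusted p = 0.0444). The groups do not overlap, but the call was kept only without LC-HFD replicate 3 when arrays were left out in turn. The partner anchor Sdhd differed by -0.14, the iron-sulfur subunit Sdhb by 0.01 and the flavoprotein Sdha by -0.09, none of them called.

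In complex III, the cytochrome bc1 complex, Uqcrq was the 1 gene called of 8. This small ubiquinone-binding subunit had 9.65, 9.70 and 9.70 in LC-HFD against 10.09, 10.05 and 9.98 in LC-RD (difference -0.36, adjusted p = 0.0115), without overlap. The call was lost without LC-RD replicate 1 or 2, and with the median over the 4 probe sets of Uqcrq the difference was 0.10. The Rieske iron-sulfur protein Uqcrfs1 differed by -0.18 (adjusted p = 0.0888), and the core proteins Uqcrc1 and Uqcrc2 differed by 0.09 and -0.06.

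In complex V, ATP synthase, 1 of 17 genes was higher and 3 were lower, with a median difference of -0.07. These are 5.88% and 17.6%, beside 11.1% and 16.2% of all genes. Atp5pb, subunit b of the peripheral stalk, had 11.24, 11.01 and 11.16 in LC-HFD against 11.51, 11.55 and 11.46 in LC-RD (difference -0.37, adjusted p = 0.0191). Atp5l and Atp5j2, subunits g and f in the membrane part, were lower by similar amounts (-0.30, adjusted p = 0.0201, and -0.28, adjusted p = 0.0224). The groups do not overlap in any of the 3. The other peripheral stalk subunits Atp5h, Atp5j and Atp5o differed by -0.04, -0.04 and 0.05 and were not called, nor were the head subunits Atp5b, Atp5c1 and Atp5a1, which differed by 0.01, -0.10 and -0.17.

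Atp5g1, Atp5g2 and Atp5g3 encode the same mature subunit c, which forms the rotating ring. Of these, Atp5g2 was higher, with 10.39, 10.40 and 10.36 in LC-HFD against 10.11, 10.07 and 10.16 in LC-RD (difference 0.27, adjusted p = 0.0279). Atp5g1 differed by 0.12 and Atp5g3 by -0.01, neither of them called. All 4 calls in complex V were lost without LC-RD replicate 1 and without LC-RD replicate 2, and Atp5pb and Atp5j2 were not called with the median over their probe sets.

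Probe sets of the same gene did not always agree. Of the 164 probe sets, 7 were higher and 28 lower, which is 4.27% and 17.1% beside 11.3% and 13.6% of all probe sets. The called members have 16 further probe sets, of which 3 gave the same call, 1 gave the opposite call and 12 were not called. The opposite call was that of Atp5g2, with 0.27 on the probe set used and -0.43 on another, whose means were 3.17 in LC-HFD and 3.6 in LC-RD. The widest ranges among the other genes were -0.63 to 0.15 for Ndufa12, an accessory subunit, -0.68 to 0.08 for Sdha, -0.48 to 0.15 for Ndufc2, -0.64 to -0.10 for Atp5c1 and -0.44 to 0.09 for Ndufb2. The probe set used for Ndufa12, and those of 19 members in all, bear a suffix for probes that match several transcripts, and pseudogenes of some members exist. How far such copies share signal was not tested.

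**Figure D3:**
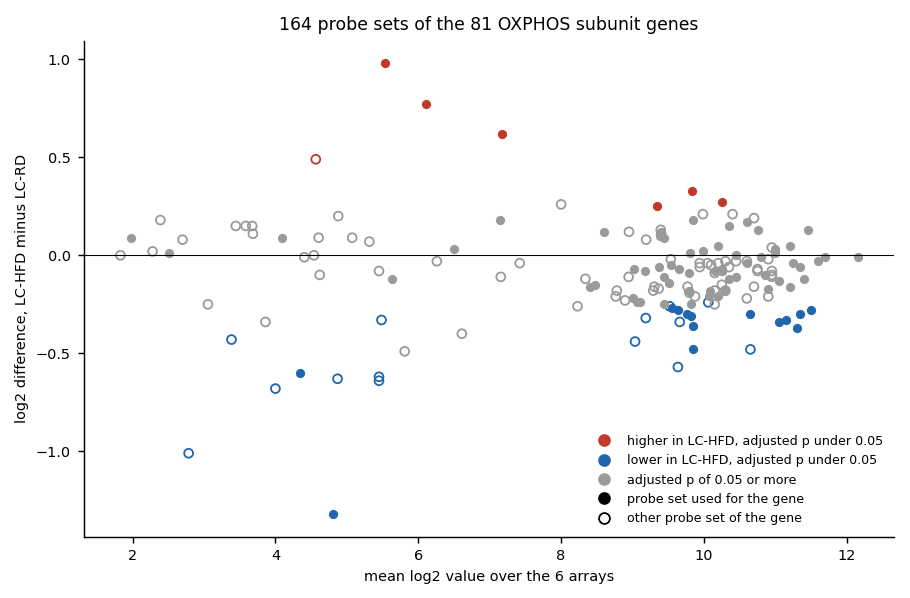
Difference between LC-HFD and LC-RD in log2 units against the mean log2 value over the 6 arrays for the 164 probe sets of the OXPHOS subunit genes, with filled points for the probe set used and open points for the others. Called probe sets with a mean of 8 or more differ by at most 0.57 in size, while the larger differences belong to probe sets of lower value, where 8 open points are called.

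Factors that build the complexes, rather than the subunits, were lower more often. Of 53 assembly factors in a list for the 5 complexes, 17 (32.1%) were lower and none was higher. Of all genes 16.2% were lower, and of those with a mean of at least 6, 23.4% were. The median was -0.22 over the factors, -0.08 over the subunits and -0.07 over genes with a mean of at least 6. By complex, 6 of 16 factors of complex I, 3 of 4 of complex II, 0 of 6 of complex III, 6 of 22 of complex IV and 2 of 5 of complex V were lower. Without LC-RD replicate 2 the count was 7 of 53, beside 8.48% of all genes lower, and without LC-RD replicate 1 it was 8. Without LC-HFD replicate 2 or 3 it was 11, and without LC-RD replicate 3 it was 10. With the signal difference of the control genes as covariate it was 2, beside 5.04% of all genes. The lists were drawn up with results of these arrays known, so these counts are a description.

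Cox11, which delivers copper to complex IV, had 6.03, 6.0 and 5.95 in LC-HFD against 6.71, 6.72 and 6.93 in LC-RD (difference -0.79, adjusted p = 0.00137). Sco1, a copper chaperone of the same complex, had 5.32, 5.09 and 4.96 in LC-HFD against 5.66, 5.69 and 5.75 in LC-RD (difference -0.58, adjusted p = 0.00843). Both genes were lower without overlap between the groups. Coa6 and Cox16, which act on complex IV as well, were lower by similar amounts (-0.51 and -0.55). Sdhaf3, which helps insert iron-sulfur clusters into complex II, had 5.72, 5.27 and 5.36 in LC-HFD against 6.17, 6.27 and 5.97 in LC-RD (difference -0.69, adjusted p = 0.0117). Sdhaf4 (-0.45), Ndufaf6 (-0.46), a complex I assembly factor, and Atpaf1 (-0.45), a chaperone of the ATP synthase head, were lower too.

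The other lists of nuclear genes of mitochondria are read beside the 11.1% of all genes that were higher and the 16.2% that were lower. Among genes with a mean of at least 6, these shares were 12.1% and 23.4%, with a median of -0.07. The ribosomal list had 26.3% lower and the import list 21.7%, both near the latter share. Among 20 regulators of mitochondrial biogenesis 1 was higher, Nrf1, and 6 were lower. With the median over probe sets of a gene 0 were higher and 6 lower. The 3' minus 5' signal as covariate left 0 higher and 1 lower. Tfam, which packages and transcribes mitochondrial DNA, had 7.30, 7.39 and 7.36 in LC-HFD against 7.71, 7.73 and 7.70 in LC-RD (difference -0.36, adjusted p = 0.0106). Tefm, the mitochondrial transcription elongation factor, was lower by a larger amount (-0.74, adjusted p = 0.00238), as was the single-strand binding protein Ssbp1 (-0.54, adjusted p = 0.00713). Ppargc1a, the PGC-1alpha coactivator, was not called (-0.13, adjusted p = 0.472). Of 23 import genes 5 were lower and none was higher, with Tomm70a (-0.62) and Tomm20 (-0.56), receptors of the outer membrane, ahead. Of 76 mitochondrial ribosomal proteins 20 were lower and 3 were higher, with a median of -0.14.

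These counts moved with single arrays, as did the count over all genes. Without LC-RD replicate 1 the ribosomal list had 2 lower and 2 higher, the import list 1 lower and the regulators 3 lower, while the share of all genes that were lower was 8.54%. Without LC-RD replicate 2 the ribosomal list had 2 lower and 1 higher, the import list 1 lower and the regulators 3 lower, with 8.48% of all genes lower. The ribosomal list had 10 lower without LC-HFD replicate 3 and 12 lower without LC-RD replicate 3, with its median between -0.16 and -0.11 when each array was left out in turn. It had 5 lower with the replicate number as a block and 3 lower with a covariate for RNA quality, the 3' minus 5' signal over the array's controls, where 11.1% and 5.04% of all genes were lower.

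The citric acid cycle and pyruvate dehydrogenase list had 2 lower of 17, Dld (-0.44) and Idh3a (-0.24). Coenzyme Q synthesis had 1 lower of 12, Coq8a (-0.35), and the electron carriers and subunits that the rule leaves out had 1 lower of 11, Etfdh (-0.24). None of these 3 lists had a higher gene, but with the median over probe sets of a gene the citric acid cycle list had 5 higher and 0 lower, and the methods' t-test called 1 of the carriers higher. Without LC-RD replicate 1 the citric acid cycle list had 1 lower and the other lists 0, and without LC-RD replicate 2 all 3 had 0 lower. Cytochrome c itself, Cycs, differed by -0.01 and cytochrome c1, Cyc1, by 0.01. For comparison, 45 cytosolic ribosomal proteins gave 1 higher and 2 lower with a median of -0.03, and 34 proteasome subunits gave 1 higher and 4 lower with a median of -0.04. The proteasome list had 1 lower without LC-RD replicate 1, 0 without LC-RD replicate 2 and 1 without LC-RD replicate 3. Genes of mitochondrial DNA were not analyzed here.

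**Figure D4:**
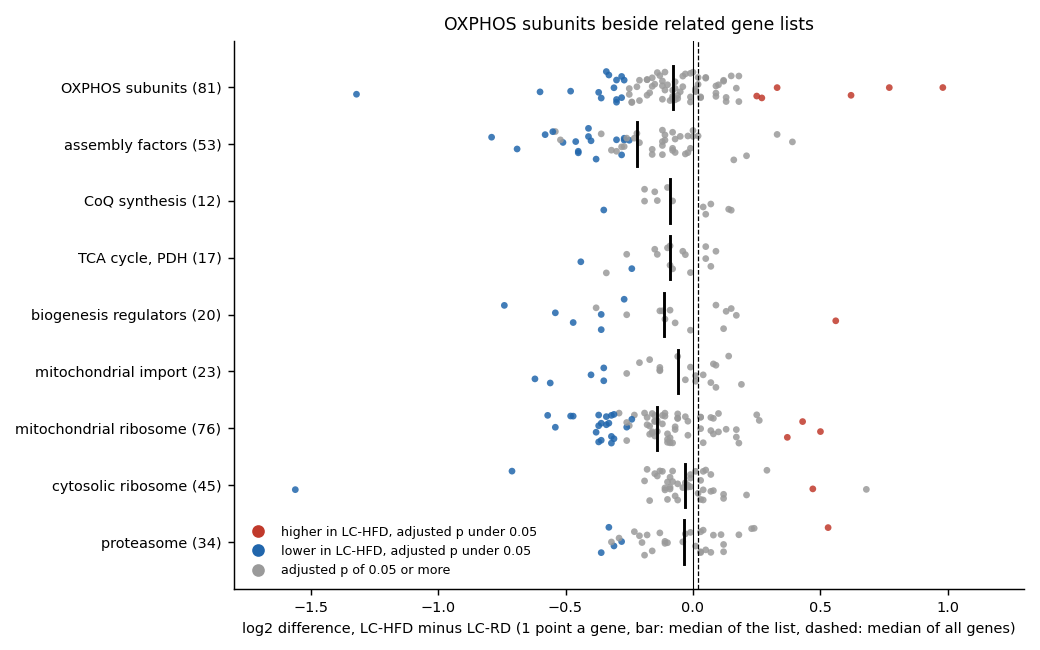
Difference between LC-HFD and LC-RD in log2 units for each gene of the OXPHOS subunits and of 8 related lists, 1 point per gene (vertical scatter within a list has no meaning), with the number of genes in parentheses. Black bars are list medians and the dashed line is the median of all genes. The assembly factors have the lowest median, -0.22, and no red point.

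**Figure D5:**
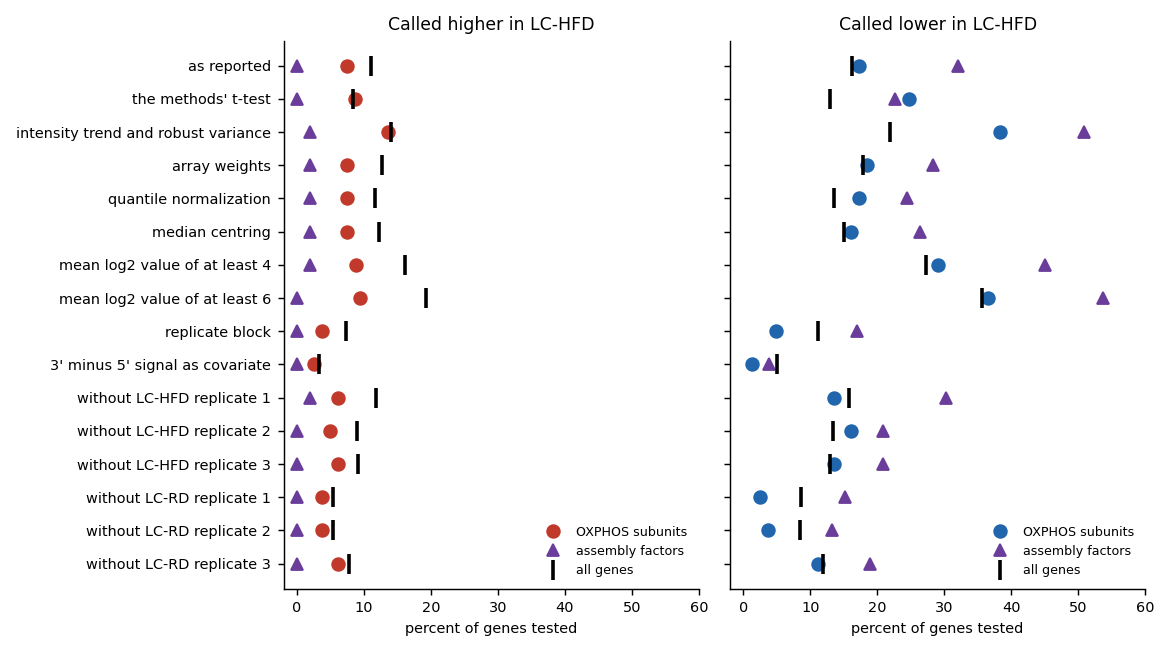
Percent of genes called higher and lower in LC-HFD under the reported setting and 15 alternatives, for OXPHOS subunits (circles), assembly factors (triangles) and all genes (bars). The subunits called lower make up 1.23% to 38.3%. They lie above all genes with the intensity trend (38.3% against 21.9%) and below them without LC-RD replicate 1 (2.47% against 8.54%).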

How the data were processed

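The authors hybridized lung RNA of each mouse to its own array, 3 in LC-HFD and 3 in LC-RD. The authors deposited log2 values made with GCRMA, which corrects background by probe sequence and normalizes arrays together, so that values are not independent between arrays. Version and settings: not given in the sources used here. No detection call accompanies the values. They were used as deposited. The 64 control probe sets were set apart, 45037 were tested, and genes were named from the platform's annotation where a probe set has exactly 1 (34945 probe sets). The file holds 0 further columns per sample.

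The difference between groups was fitted with limma 3.58.1 under R 4.3.3 (lmFit and eBayes, two-sided, Benjamini-Hochberg adjustment over the 45037 probe sets), with a call at an adjusted p under 0.05. Controls were compared with an exact permutation test. Tested on simulated data for this comparison (45037 probe sets), the steps recovered 93 of 100 shifts of 1.5 log2 units and 57 of 100 of 0.75. Far fewer probe sets were shifted there than were called in the data. Both sizes exceed most of the called OXPHOS differences, so recovery of differences that small was not tested.

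Members and lists were chosen with earlier results of these data known. Named are, per complex, up to 3 called genes with the largest change each way, isoform families, catalytic subunits, genes whose probe sets differ most and up to 3 genes of each related list. Others named were chosen after their values were seen. Alternatives were the methods' t-test, other variance models and normalizations, minimum values of 4 and 6, a replicate block, the 3' minus 5' control signal as covariate, other probe sets, a 1.5-fold threshold and each array left out.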

Additional observations from a re-analysis of the deposited data

How the results depend on the processing

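Precision is limited by 3 arrays per group and, for genes of low signal such as Cox7c and Cox7a1, by values near background. Reported were 6 OXPHOS genes higher, 14 lower and 1 past 2-fold, with a median of -0.08, whose side of 0 was kept in every setting. With an intensity trend and robust variance 11 were higher and 31 lower, or 13.6% and 38.3%, where 14.1% and 21.9% of all genes were. With minimum means of 4 and 6, fitted anew on the probe sets kept, 23 and 27 were lower. These are 29.1% and 36.5%, where 27.3% and 35.7% of all genes kept were lower. The replicate block gave 3 higher and 4 lower, or 3.7% and 4.94%, where 7.37% and 11.1% of all genes were. Same-numbered arrays did not deviate together (correlations -0.0431, -0.093 and -0.0303). No sign that the numbers pair the mice was thus seen, but 3 arrays per group cannot exclude it. With the 3' minus 5' signal as covariate 2 were higher and 1 lower, or 2.47% and 1.23%, where 3.2% and 5.04% of all genes were. That signal averaged 1.65 in LC-HFD and 1.73 in LC-RD, so the covariate shares variation with diet. Leaving out each array in turn gave 3 to 5 higher, 2 to 13 lower and 1 to 2 past 2-fold. Past 2-fold were 0 genes with the methods' t-test, with a minimum mean of 6, where Cox7c is left out, and with the covariate, 2 with quantile normalization and 5 past 1.5-fold. The methods' t-test called 7 higher and 20 lower, or 8.64% and 24.7%, where 8.42% and 12.9% of all genes were.

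The sign of 5 members turned with the median over probe sets and that of 4 among probe sets ending in _at or _a_at. Of the genes called under at least 1 of the choices, Ndufa12 was at -0.63 in the _at or _a_at sets, Uqcrq was at 0.09 there and at 0.10 with the median over probe sets, and Atp5g2 was at -0.43 with that median. Cox7c lost its call only with the methods' t-test, and Ndufc1 and Cox6b2 only with the covariate. Why these settings differ was not tested.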

Other observations

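Because Ndufa4l2 is known as a hypoxia-induced gene, a list of 18 other genes known to respond to hypoxia was read after its values had been seen. It gave 4 higher and 1 lower, with a median of 0.13 log2 units, where 11.1% of all genes were higher and 16.2% lower. Without LC-RD replicate 1, without LC-RD replicate 2 and without LC-RD replicate 3 it gave 2 higher and 1 lower each time, and the replicate block gave the same counts. With the 3' minus 5' signal as covariate it gave 2 higher and 0 lower. Ankrd37, an ankyrin repeat protein, was higher by 1.35 (adjusted p = 0.000226), and the glycolytic enzymes Aldoa and Ldha were higher by 0.52 and 0.26 (adjusted p = 0.00268 and 0.0322). P4ha1, a collagen prolyl hydroxylase, was higher by 0.28 (adjusted p = 0.025). Bnip3, a mitophagy receptor, was lower (difference -0.39, adjusted p = 0.00748). Vegfa, Slc2a1, Car9 and Pdk1 differed by 0.13, 0.25, -0.19 and -0.23 and were not called. Without a measurement of oxygen, nothing further was tested.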
